A study of Rattus norvegicus with 16 samples.

Results

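The ovary of the wild-type, vehicle-treated rat is described here gene by gene. The 4 arrays were chosen by their labels alone out of 16 in the study, so no measured value decided which were used. The animals were females of the Jcl:SD stock of Sprague-Dawley rats, wild type and given vehicle (n = 4, 1 array per animal). They were set against the other 12 arrays, which came from wild-type rats given olaparib, BRCA1+/- rats given vehicle and BRCA1+/- rats given olaparib (n = 4 each) of the same stock. Olaparib inhibits poly(ADP-ribose) polymerases, and Brca1 is a DNA repair gene. The drug was injected under the skin at 50 mg/kg once daily for 14 days, starting at 3 weeks of age, and the tissue was collected 24 h after dosing ended. What the vehicle contained, and at what age and how often it was given, are not given in the sources used here. A whole ovary mixes all its cell types, so fewer cells of a type and less RNA per cell cannot be told apart in any value below.

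The ovary of a rat near puberty holds follicles at many stages. In a follicle the oocyte is surrounded by granulosa cells, which make inhibin and turn androgens into oestrogens, and by theca cells, which make those androgens. Steroid synthesis begins when Star moves cholesterol into the mitochondrion and Cyp11a1 cuts it, with electrons passed on by Fdxr and Fdx1. Hsd3b enzymes then make progesterone, Cyp17a1 makes androgens and Cyp19a1 (aromatase) makes oestrogens.

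Levels are given as log2 signal, the log2 of the processed spot signal minus the 75th percentile of the same array, so that 0 is that percentile. The brightness of a probe depends on its own sequence as well as on its transcript. Ranks of genes are therefore ranks of array signal, not of transcript amount. The probes of the steroid enzymes at the extremes of the results are shown for that reason, as the first 30 of their 60 bases, 5′ to 3′, with nothing marked. In build rn4, as the array files give it, the whole probes lie at chr8:61805419-61805478 (plus strand) for Cyp11a1, chr2:193500935-193500994 (minus) for Hsd3b1, chr1:251965532-251965591 (minus) for Cyp17a1 and chr8:57651982-57652041 (minus) for Cyp19a1. Each is designed to the transcript of its gene, and the files do not name the exon.
Cyp11a1: ctcctctctttcatcctgtctccctttcta
Hsd3b1: gttcctcttcaagtcctaaatcacatcctg
Cyp17a1: gatccatacctcaacacccacagtacaatc
Cyp19a1: aaaggtgtattgaaaatatgccgaaaaata

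For most of the 45586 probes the signal was well above background, a flag that the scanning software sets for each spot. The shares were 58.0%, 57.9%, 55.5% and 57.7% on replicates 1 to 4, against 55.5% to 60.7% on the 12 other arrays. Replicate 3 had the lowest share and also the lowest 75th percentile of processed signal, 206 against 394 to 420 on replicates 1, 2 and 4. In the wild-type vehicle ovaries 23699 probes (52.0%) were well above background on all 4 arrays and 16830 (36.9%) on none. Among 19227 genes with a symbol, 13304 (69.2%) were well above background on all 4 and 4284 (22.3%) on none. No probe was well above background on all 4 of these arrays and on none of the other 12, and none was on all 12 and on none of the 4. Between pairs of the 4 arrays Pearson's r across 18002 genes or unnamed probes was 0.955 to 0.980, lowest between replicates 3 and 4. This r is across genes, which are not independent replicates. Replicates 1 and 2 of each group were on one slide and replicates 3 and 4 on another. Each group had its own column on the slides, so group and column cannot be told apart.

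The brightest genes of the wild-type vehicle ovary were mostly those of ribosomes, with 2 early enzymes of steroid synthesis among them. Of the 30 genes with the highest mean log2 signal, 18 had the symbol of a ribosomal protein, and 2 belonged to the steroid lists, Cyp11a1 and Hsd3b1. Rpl41, a protein of the large ribosomal subunit, stood first, with 9.62, 9.63, 10.43 and 9.63, against 9.25 to 10.52 on the 12 other arrays. Cyp11a1, the side-chain cleavage enzyme, ranked 4 with 9.17, 8.97, 9.87 and 9.14, against 8.18 to 10.11. Hsd3b1, a 3-beta-hydroxysteroid dehydrogenase, ranked 7 with 8.73, 8.60, 9.98 and 9.14, against 8.41 to 9.91. All 3 were highest on replicate 3, and each overlapped the other groups. For Rpl41 and Cyp11a1 that order depended on the scaling. After quantile normalization Rpl41 had 18.28 on replicates 1 and 2 and 18.15 on replicates 3 and 4. Cyp11a1 was then highest on replicate 1, while Hsd3b1 stayed highest on replicate 3. The SD over the 4 arrays was then 0.11 for Cyp11a1 and 0.20 for Hsd3b1, against 0.40 and 0.63. The 107 ribosomal protein genes well above background on all 4 arrays lay on average -0.18, -0.16, 0.40 and -0.06 from their own means on replicates 1 to 4. Ribosomal protein genes have many near-identical copies in the genome, and Rpl37a-ps1 was among the 18, so a probe may read several of them.

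The other bright genes were mostly abundant in any cell. Among the 30 were Ftl1 (ferritin light chain), Ubb (ubiquitin), Tpt1, Myl6 (a myosin light chain), Mif (a cytokine), Tmsb10 (a thymosin), Ppia (cyclophilin A) and Hba-a1 (alpha globin of red blood cells). Mif had log2 signals of 8.92, 8.61, 8.78 and 8.95 and was nearly level across the 4 animals. Hba-a1 had 8.37, 8.32, 9.10 and 9.39 and was higher on replicates 3 and 4. Both orders depended on the scaling. After quantile normalization Mif had 17.67, 17.30, 16.71 and 17.45, lowest on replicate 3. Hba-a1 then had 17.06, 16.99, 16.98 and 17.88 and was high on replicate 4 alone. Among the 100 brightest genes 60 were ribosomal proteins and 5 were subunits of the respiratory chain, and among the 500 brightest 84 and 48 were. Genes of the steroid lists numbered 3 of the 100 and 9 of the 500. Ribosomal protein genes had a median percentile of 99.55 within an array (n = 117) and respiratory chain genes 97.44 (n = 101), where all genes with a symbol had 66.39. Of the 30 brightest genes 26 were also among the 30 brightest by the mean of the 12 other arrays, and of the 100 brightest 96 were.

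Rn45s, the precursor of ribosomal RNA, ranked 3 and is uncertain. Its mean log2 signal was 9.37 ± 0.69 (SD, n = 4) at its brightest probe, with 8.92, 8.85, 10.36 and 9.35 on the 4 arrays. Its other probes had means of 3.96 and 7.76, so its 3 probes disagree in level. Replicate 3 was highest here too.

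**Figure D1:**
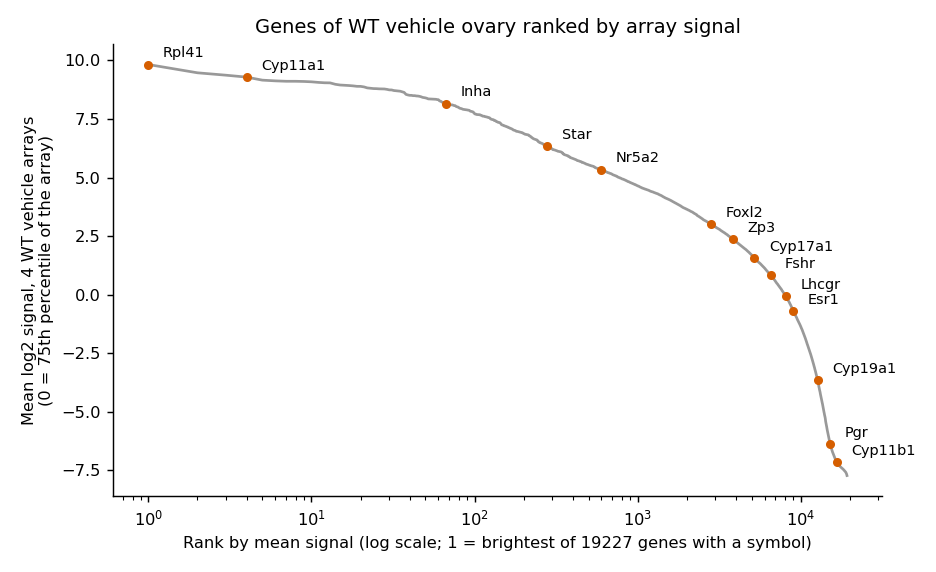
Mean log2 signal over the 4 wild-type vehicle arrays (vertical axis, 0 at the 75th percentile of an array) against the rank of each of 19227 genes with a symbol (horizontal axis, log scale), with named genes labelled. Cyp11a1 stands at rank 4 with a mean of 9.29, and Cyp17a1 at rank 5205 with 1.55.

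Steroid genes spread over nearly the whole range of signal, with the early enzymes at the top and aromatase low. Of 49 steroid genes with a probe, 41 were well above background on all 4 arrays. The 3 on none were Cyp11b1 and Cyp11b2, which make corticosterone and aldosterone in the adrenal, and Pgr, the progesterone receptor. The median percentile of the 49 was 79.99, and 12 of them were at percentile 95 or higher, where 6.61% of all genes with a symbol were.

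The 13 synthesis enzymes had a median percentile of 96.64. Beside Cyp11a1, its electron carriers were bright: Fdxr had log2 signals of 7.96, 7.59, 8.18 and 7.88. Fdx1 had 7.92, 7.67, 7.32 and 7.50. Both were steadier than in the other groups, with SDs of 0.25 and 0.26 against pooled SDs of 0.51 and 0.65. For Fdx1 the SD depended on the scaling: after quantile normalization it was 0.44, and that of Fdxr was 0.20. Hsd3b2 had 6.61, 6.21, 6.50 and 7.39, highest on replicate 4. Rat Hsd3b genes are close copies of each other, so Hsd3b1 and Hsd3b2 may share signal. Hsd17b1, the granulosa enzyme that makes oestradiol, had 6.23, 6.77, 7.06 and 6.57, against 5.30 to 6.77 on the 12 other arrays, and replicate 3 exceeded them all, though not after quantile normalization. Cyb5a, a cofactor of Cyp17a1, averaged 5.0 ± 0.41 and Por, which passes electrons to it, 2.00 ± 0.38 (SD, n = 4). Hsd17b7 averaged 1.25 ± 0.76 and Hsd3b7, an enzyme of bile acid synthesis, -1.32 ± 0.95, while Hsd17b3, which makes testosterone in testis, was well above background on 3 arrays.

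Cyp17a1 had the highest SD, 3.71, of the 13304 genes with a symbol that were well above background on all 4 wild-type vehicle arrays. By range, Cd300lg was wider, at 7.87 against 6.64. The log2 signals of Cyp17a1 were 4.63, -1.57, 4.90 and -1.74, and the highest and lowest arrays differed 99.6-fold. Replicates 1 and 3 were high and replicates 2 and 4 low, with no array between. All 4 values were well above background. On the 12 other arrays the signal was below 0 once, at -1.93 on replicate 4 of the BRCA1+/- olaparib group, and otherwise 3.70 to 6.41. Replicates 2 and 4 of each group lay in the second row of their slide. Of the 6 arrays of the other groups in that row 5 had Cyp17a1 over 3, and of the 6 in the first row all 6 did. The gene has a single probe, shown above, so no second probe bears on these values.

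Aromatase and the receptor for luteinising hormone were also lowest on replicates 2 and 4. Cyp19a1 had -2.95, -4.75, -1.65 and -5.30 and was well above background on 3 of the 4 arrays, against -4.11 to -1.01 on the 12 others. Replicates 2 and 4 lay below all 12. Lhcgr, that receptor, had 0.56, -1.30, 0.82 and -0.35, and these values overlapped the other groups. Insl3, a peptide hormone of theca cells, had 2.03, 1.11, 3.82 and 2.54 and was lowest on replicate 2. Srd5a1, the 5-alpha-reductase that reduces testosterone and progesterone, had the opposite order, 0.54, 2.97, -0.91 and 2.35. On replicate 4 of the BRCA1+/- olaparib group it was 2.63, the highest of the 12.

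**Figure D2:**
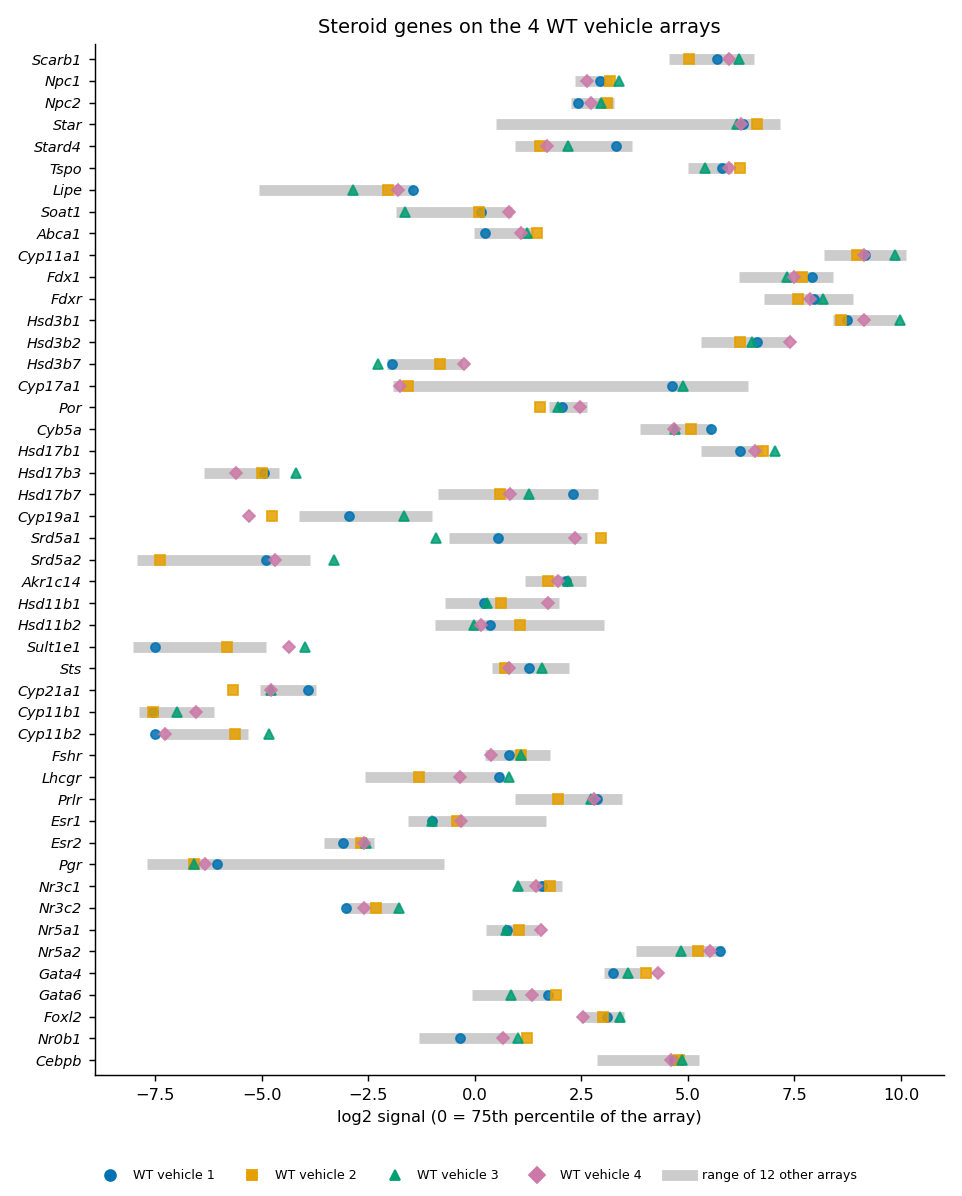
Log2 signal (horizontal axis) of most steroid genes on the 4 wild-type vehicle arrays, with the range of the 12 other arrays behind them. Cyp11a1, Hsd3b1, Fdxr and Fdx1 lie at the bright end, and Cyp17a1 has 2 arrays over 4 and 2 under -1.

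All 10 genes of cholesterol supply were well above background on the 4 arrays. Star had 6.30, 6.61, 6.16 and 6.24, an SD of 0.20, while the SD pooled within the other groups was 1.81 and their range 0.51 to 7.16. The low SD rests on 1 of its 2 probes: the dimmer probe had 4.46, 5.33, 6.07 and 6.06, an SD of 0.76. Scarb1, the receptor for high-density lipoprotein, averaged 5.72 ± 0.51 and Tspo, a protein of the outer mitochondrial membrane, 5.85 ± 0.35 (SD, n = 4). Soat1, which esterifies cholesterol, had 0.14, 0.10, -1.64 and 0.81 and was low on replicate 3 alone. Npc1 and Npc2, which move cholesterol out of lysosomes, averaged 3.03 ± 0.32 and 2.81 ± 0.30, Stard4 2.18 ± 0.80, Abca1 1.00 ± 0.54 and Lipe -2.03 ± 0.60.

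Of 7 reducing and conjugating enzymes 5 were well above background on all 4 arrays. Akr1c14, which reduces dihydrotestosterone and dihydroprogesterone, averaged 2.00 ± 0.22, Sts (steroid sulfatase) 1.10 ± 0.41, Hsd11b1 0.71 ± 0.69 and Hsd11b2 0.39 ± 0.48 (SD, n = 4). Srd5a2 was well above background on 3 arrays and Sult1e1, the oestrogen sulfotransferase, on 2. The adrenal enzyme Cyp21a1 was on 2.

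Of 9 receptors 8 were well above background on all 4 arrays. Fshr, the receptor for follicle-stimulating hormone on granulosa cells, averaged 0.84 ± 0.34 and Prlr, the prolactin receptor, 2.59 ± 0.42. The oestrogen receptors Esr1 and Esr2 averaged -0.69 ± 0.37 and -2.72 ± 0.25, and the corticoid receptors Nr3c1 and Nr3c2 1.45 ± 0.32 and -2.43 ± 0.53. Pgr, which the ovulatory surge induces in granulosa cells, had -6.05, -6.58, -6.58 and -6.32, not well above background on any array, against -7.70 to -0.72 on the 12 others.

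All 7 transcription factors were well above background on the 4 arrays. Nr5a2 (Lrh-1) averaged 5.34 ± 0.39, Cebpb 4.73 ± 0.12, Gata4 3.80 ± 0.47 and Foxl2, a factor of granulosa cell identity, 3.02 ± 0.36. Gata6 averaged 1.46 ± 0.47, Nr5a1 (steroidogenic factor 1) 1.02 ± 0.38 and Nr0b1, its repressor, 0.64 ± 0.70. Cebpb was steadier than in the other groups, whose pooled SD was 0.70. Its dimmer probe was less steady than the one used, with an SD of 0.32.

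Nr5a1 and Nr5a2 are known to bind a short element in steroid genes, so the 250 bases before the start are shown for the 4 brightest synthesis enzymes with a promoter at hand. RefSeq promoters of build GRCr8 were at hand for 32 of the 49 steroid genes. The letters AAGGNCA, on either strand, occurred in 5 of the 32 and in 17.6% of 33360 promoters of that length. Matches are in capitals: Hsd3b1 and Fdx1 hold 1 each, Fdx1 on the opposite strand, and Cyp11a1 and Fdxr none in this window. A match is a run of letters, not a binding site. The windows are chr8:67318415-67318664 (plus strand) for Cyp11a1, chr2:188864695-188864944 (minus) for Hsd3b1, chr10:101015536-101015785 (minus) for Fdxr and chr8:61183646-61183895 (minus) for Fdx1.
Cyp11a1: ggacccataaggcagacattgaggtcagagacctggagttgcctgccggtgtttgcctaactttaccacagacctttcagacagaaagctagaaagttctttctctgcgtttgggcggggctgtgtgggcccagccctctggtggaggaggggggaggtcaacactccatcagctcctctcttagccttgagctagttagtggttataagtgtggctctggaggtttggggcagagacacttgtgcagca
Hsd3b1: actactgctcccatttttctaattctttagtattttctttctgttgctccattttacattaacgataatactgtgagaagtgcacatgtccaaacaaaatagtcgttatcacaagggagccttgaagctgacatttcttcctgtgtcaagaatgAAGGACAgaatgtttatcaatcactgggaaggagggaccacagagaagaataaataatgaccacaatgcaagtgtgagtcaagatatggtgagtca
Fdxr: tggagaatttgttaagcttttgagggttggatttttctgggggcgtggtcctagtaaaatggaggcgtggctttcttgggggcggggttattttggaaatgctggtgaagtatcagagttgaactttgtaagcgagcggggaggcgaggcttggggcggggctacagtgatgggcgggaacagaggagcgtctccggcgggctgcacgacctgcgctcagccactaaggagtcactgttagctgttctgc
Fdx1: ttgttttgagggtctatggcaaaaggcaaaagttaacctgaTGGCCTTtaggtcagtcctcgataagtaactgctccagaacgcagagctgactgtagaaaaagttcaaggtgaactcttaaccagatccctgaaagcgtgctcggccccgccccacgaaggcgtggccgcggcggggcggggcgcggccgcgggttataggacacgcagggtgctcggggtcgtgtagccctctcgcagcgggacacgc

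Among cell type lists, granulosa cells had the highest median percentile, 94.93, with 14 of 15 genes well above background on all 4 arrays. Inha, the alpha subunit of inhibin, had 8.00, 7.92, 8.84 and 7.87 and ranked 67 among all genes with a symbol. Inhba, a beta subunit of inhibin and activin, had 6.17, 6.56, 8.15 and 5.69. Replicate 3 was the highest for both and lay above the range of the 12 other arrays, 7.19 to 8.30 and 5.82 to 7.47. After quantile normalization only Inhba of the pair did. Inhbb, the other beta subunit, had 5.87, 6.06, 5.49 and 5.07 and was not highest there. Fst (follistatin, which binds activin) averaged 5.78 ± 0.46, Gja1 (a gap junction protein) 4.37 ± 0.51 and Amh, the hormone of small growing follicles, 4.36 ± 0.55 (SD, n = 4).

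Stromal fibroblast genes came next, with a median percentile of 92.58 and 11 of 11 well above background on all 4 arrays. Col1a1, a collagen chain, averaged 5.62 ± 0.58, Mgp (matrix Gla protein) 7.59 ± 0.45 and Sparc 7.19 ± 0.32 (SD, n = 4). Lum, the proteoglycan lumican, had 1.43, 2.14, -0.47 and 2.18 and was low on replicate 3 alone. Smooth muscle and pericyte genes had a median of 87.41 (10 of 10) and endothelial genes 84.02 (12 of 12). Kdr, a receptor for vascular endothelial growth factor, averaged 4.08 ± 0.41 and Acta2, smooth muscle actin, 2.26 ± 0.59. The theca and interstitial list had a median of 79.74 (11 of 11), and it shares Cyp11a1, Cyp17a1, Star, Hsd3b1, Nr5a1, Lhcgr and Srd5a1 with the steroid lists.

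Oocyte genes had a median percentile of 68.32, with 17 of 19 well above background on all 4 arrays. The zona pellucida genes Zp1, Zp2 and Zp3 averaged 0.42 ± 0.48, 0.20 ± 0.52 and 2.36 ± 0.23. Gdf9, a growth factor secreted by oocytes, had 1.30, 2.15, 1.22 and 1.18. It was highest on replicate 2, and so were 14 of the 17 oocyte genes, where 22.9% of 13304 genes were. Replicate 4 was lowest for 12 of the 17, where 35.7% of all genes were. Dazl and Ddx4, germ cell genes, were well above background on 3 and 2 arrays.

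Macrophage genes were the brightest of the immune lists, with a median percentile of 82.17 and 12 of 13 well above background on all 4 arrays. C1qb, a complement chain, had 3.38, 5.0, 5.04 and 4.33 and Tyrobp, a signalling adaptor of myeloid cells, 3.44, 4.80, 4.71 and 4.09. Both were lowest on replicate 1, as were 9 of the 12, where 18.8% of all genes were. The T and NK cell list had a median of 56.33, with 8 of 11 genes well above background on all 4 arrays, and the B cell list 51.19, with 2 of 4. Cd3e, a chain of the T cell receptor complex, was well above background on 1 array and Ms4a1, which encodes CD20 of B cells, on none. Red blood cell genes had a median of 84.17, and 7 of the 9 well above background on all 4 arrays were highest on replicate 4. Hba-a3 had 3.89, 4.81, 4.26 and 3.65, an SD of 0.51, against a range of -7.92 to 5.24 on the 12 others.

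Luteal and ovulatory genes lay lower than granulosa genes. The luteal list had a median percentile of 71.20 and the ovulatory list 60.27, with 6 of 11 well above background on all 4 arrays. Ptgfr, the prostaglandin F receptor of the corpus luteum, had -2.14, -0.56, 0.86 and -0.09, against -7.16 to 1.89 on the 12 other arrays. Ptgs2, a prostaglandin synthase that the ovulatory surge induces, had -4.27, -5.31, -5.18 and -5.48, against -5.25 to -0.61, with replicates 2 and 4 under the lowest of the 12. Areg, an epidermal growth factor ligand, averaged -2.20 ± 0.39, and Btc, another, was not well above background on any of the 4. Adamts1, a protease of the ovulating follicle, was bright at 4.35 ± 0.66 (SD, n = 4).

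Genes of tissue next to the ovary differed between the arrays. The oviduct and ciliated epithelium list had a median percentile of 56.35, with 8 of 11 genes well above background on all 4 arrays. Dnai1, a motor protein of cilia, was the only one on none. Foxj1, the factor that directs motile cilia, had -2.93, -1.69, -4.58 and -4.47, against -6.17 to 4.24 on the 12 other arrays. That probe of Foxj1 was well above background on 3 of the 4 arrays. A second probe of Foxj1, well above background on all 4, was nearly level, with an SD of 0.19. Msln (mesothelin, of surface epithelium and mesothelium) had 3.88, 0.63, -0.63 and 3.30. Upk3b had -1.78, -4.38, -4.38 and -1.63, and both were higher on replicates 1 and 4. The 9 genes of that list lay on average 0.91, -0.57, -1.02 and 0.68 from their own means on replicates 1 to 4. Adipocyte genes had a median percentile of 44.42, and Lep, Plin1 and Cidec were not well above background on any array. Adipoq (adiponectin) had 0.14, -7.55, -6.73 and -1.93 and Retn (resistin) -0.54, -5.68, -5.62 and -1.09, also higher on replicates 1 and 4, and each well above background on 2 arrays. The 4 adipocyte genes well above background on all 4 arrays had another order. Fabp4 and Ucp1 were highest on replicate 2, and Cfd and Slc2a4 on replicate 3. Fabp4, a fatty acid binding protein, had -0.81, 1.12, -0.89 and -0.10. The part of these cells in other values was not tested.

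Markers of other organs had the median percentile 35.50, and 11 of 17 were not well above background on any of the 4 arrays, among them Alb of liver, Ins1 and Ins2 of pancreatic islets and Prl of the pituitary. The 5 on all 4 arrays were Ckm, Tg, Pomc, Sox9 and Dmrt1. Of the granulosa, theca and oocyte markers 14 of 15, 11 of 11 and 17 of 19 were well above background on all 4 arrays, where 69.2% of all genes with a symbol were. The smooth muscle, endothelial, macrophage and red blood cell lists were detected about as fully (10 of 10, 12 of 12, 12 of 13 and 9 of 10), so these counts alone do not single out the ovary.

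**Figure D3:**
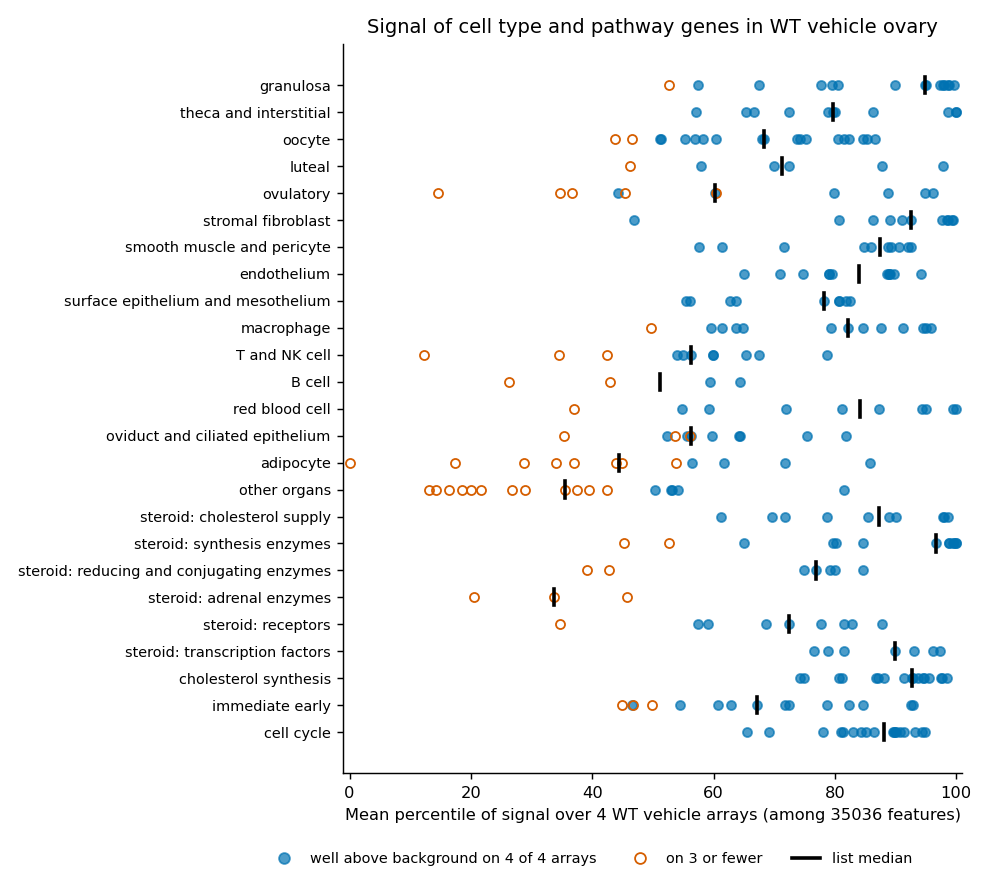
Percentile of signal within an array (horizontal axis, mean over the 4 wild-type vehicle arrays) of the members of 25 gene lists. The granulosa list has a median of 94.93, the adipocyte list 44.42 and the list of other organs 35.50.

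Spread between the 4 animals was measured for the 13304 genes with a symbol that were well above background on all 4 arrays. The median SD was 0.35 and the median of the SD pooled within the other groups 0.36. An SD of 1 or more was found for 476 genes (3.58%). Of these 476, 192 had their highest value and 137 their lowest on replicate 3, and 105 had their highest and 141 their lowest on replicate 4. Of all 13304 genes 34.1% were highest and 29.6% lowest on replicate 3, and 35.7% were lowest on replicate 4. Among the same 13304 genes, chosen by their detection in wild-type vehicle ovaries, other groups also had genes with an SD of 1 or more. These numbered 1451 in the wild-type olaparib group, 673 in the BRCA1+/- vehicle group and 652 in the BRCA1+/- olaparib group. Of the 500 genes with the highest SD in wild-type vehicle ovaries, 164 (32.8%) were among the 500 highest of the wild-type olaparib group, 131 (26.2%) of the BRCA1+/- vehicle group and 213 (42.6%) of the BRCA1+/- olaparib group. Each list of 500 came from the same 13304 genes, so the share for unrelated lists would be 500 in 13304.

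The 25 genes of highest SD were led by Cyp17a1, with an SD of 3.71. For 23 of the 25 the SD pooled within the other groups was also 1 or more, the exceptions being Btnl5 (0.94) and Cadps (0.90). Cd300lg, a receptor of capillary endothelium, had 0.72, 1.48, 2.55 and -5.33 and was low on replicate 4 alone. Rln1, the hormone relaxin, had -0.87, 5.0, 4.16 and 4.35 and was low on replicate 1 alone. The 3 other values of Rln1 lay above the range of the 12 other arrays, -2.49 to 4.05. Wfdc21 had 4.06, -1.65, -0.24 and 4.67 and Car3, a carbonic anhydrase of fat and muscle, 2.88, -1.24, -1.58 and 2.09. Both were higher on replicates 1 and 4, as Msln, Adipoq and Retn were.

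Several of the 25 were high and low on the same replicates as Cyp17a1. Myh6, a heavy chain of cardiac myosin, had 3.28, -0.14, 5.45 and 0.78. Myh7, another, had 1.56, -1.91, 3.05 and -1.15, and Phyhip had 1.09, -1.57, 3.15 and -1.31. Heatr9 had -2.16, -3.87, -0.27 and -5.60 and Cadps, a protein of vesicle release, -2.85, -5.10, -0.16 and -4.01. Epha5, an ephrin receptor, had -0.70, -2.78, 0.58 and -3.83. In all 6 the 2 higher arrays were replicates 1 and 3. Ptprn, a protein of secretory granules, had 0.60, 3.68, -0.44 and 4.14, with replicates 2 and 4 high, and its second probe had an SD of 2.90. On replicate 4 of the BRCA1+/- olaparib group, where Cyp17a1 was low, Myh6 was -0.56, Myh7 -2.53, Phyhip -1.64, Heatr9 -4.54 and Cadps -3.00, each the lowest of the 12 other arrays. Epha5 was -3.38 there, which was not the lowest. Ptprn was 3.99 there, the highest of the 12. These genes were picked out after their values were seen, and no test was made of the pattern.

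**Figure D4:**
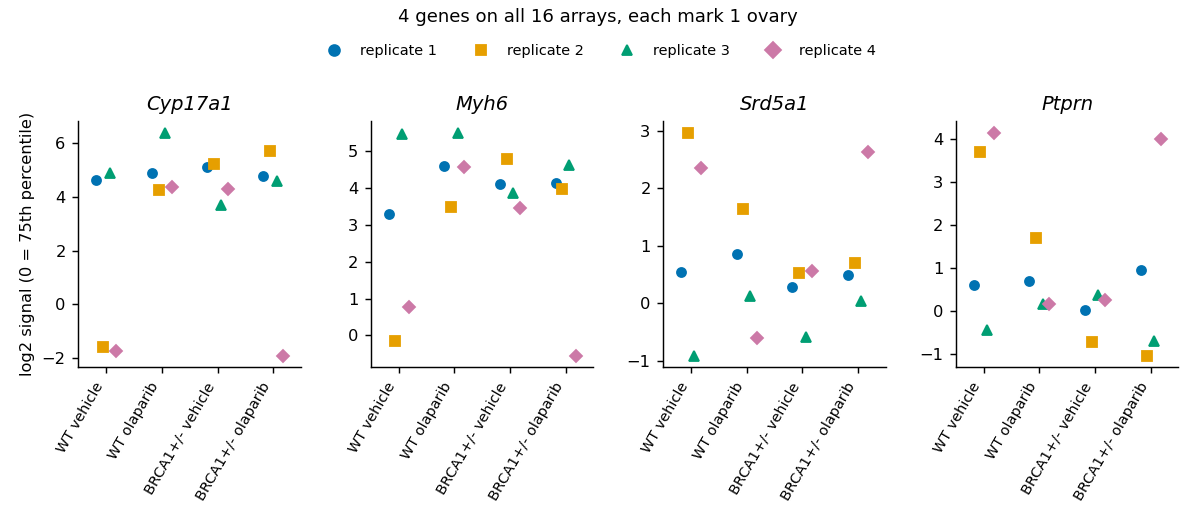
Log2 signal (vertical axis) of Cyp17a1, Myh6, Srd5a1 and Ptprn on each of the 16 arrays, by group and replicate. Cyp17a1 is below 0 on replicates 2 and 4 of the wild-type vehicle group and on replicate 4 of the BRCA1+/- olaparib group, and above 3 on the others.

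Further genes of high SD are given for their orders. S100a8, a calcium-binding protein of neutrophils, had -4.81, -0.27, -3.56 and -0.50 and Edn2, an endothelin that granulosa cells make at ovulation, -4.33, -0.59, -4.11 and -0.39, both higher on replicates 2 and 4, as Ptprn was. Pdia5, a protein disulphide isomerase, had 1.75, 1.70, -2.86 and -2.62 and divided the arrays by slide. Its slide difference in the 12 other arrays did not pass the test (limma, adjusted p = 0.229). Coil, a protein of Cajal bodies, had 0.01, -4.20, 0.42 and 0.18, and its second probe had an SD of 0.22. Of the 13 genes with several probes, 10 had another probe with an SD of 1 or more, and the exceptions were Btnl5, Coil and RT1-T24-4. Some of these other probes were dim, so their SDs include values near background. Those of Fcer2 and Cadps were well above background on 1 array, and those of Car3, S100a8 and Phyhip on 2. Among the 5 genes of lowest SD were Taf6, a subunit of the general transcription factor TFIID, with 2.17, 2.20, 2.19 and 2.18. The low SD of Taf6 rests on 1 of its 2 probes, as the dimmer probe had an SD of 0.54. Necap1, Josd2 and Tp53bp1, also among the 5, had SDs of 0.02.

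**Figure D5:**
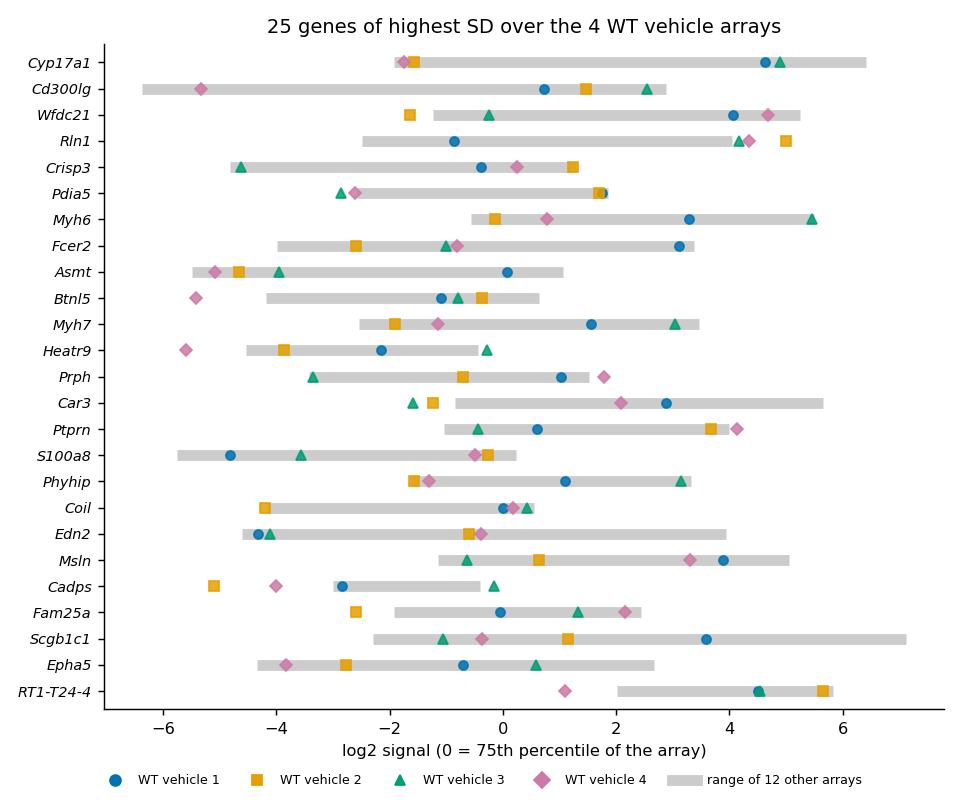
Log2 signal (horizontal axis) of the 25 genes of highest SD on the 4 wild-type vehicle arrays, with the range of the 12 other arrays. Cyp17a1 has the highest SD, and Rln1 is low on replicate 1 alone.

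Genes of cholesterol synthesis were mostly high on the same array. All 17 were well above background on the 4 arrays, with a median percentile of 92.63 and a median SD of 0.93. Hmgcs1, an early enzyme of the route, had 7.18, 4.83, 4.98 and 5.76 and Msmo1, a late one, 8.10, 5.97, 5.20 and 6.49. Replicate 1 was highest for 16 of the 17, where 21.6% of all genes were, and replicate 3 lowest for 12, where 29.6% were. The exception was Dhcr7, highest on replicate 4. The 17 genes lay on average 1.16, -0.49, -0.78 and 0.11 from their own means on replicates 1 to 4. The 9 adipocyte genes scored the same way lay at 1.28, -1.07, -0.64 and 0.43, and the surface epithelium and mesothelium genes at the values given above, both also highest on replicate 1. Only 4 of the 9 adipocyte genes were well above background on all 4 arrays, and none of those 4 was highest on replicate 1. The part of either cell type in the result was not tested. The 18 cell cycle genes had a median percentile of 88.02, and 14 were lowest on replicate 3. Mki67, a marker of dividing cells, had 3.49, 3.39, 2.44 and 2.68. Immediate early genes had a median of 67.17, with Fos at -2.13 ± 0.56 and Egr1 at 0.98 ± 0.40 (SD, n = 4).

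Whether genes set the wild-type vehicle ovary apart was tested as its mean minus the mean of the other 3 groups. None of 20227 genes or unnamed probes passed an adjusted p of 0.05 in limma (0.0% called), and the lowest adjusted p was 0.854. At an unadjusted p under 0.05 there were 1031, 574 higher and 457 lower in wild-type vehicle ovaries. In simulated data with 200 of 20227 changed, 76 were recovered at a log2 change of 1 and 158 at 2. The simulated noise was normal and independent between genes, with no slide difference shared between genes. These rates may therefore not hold for the real arrays, or where fewer than 200 genes change. The lists with at least 5 tested genes and over 75% of them on one side, a rule added after the values were seen, are given here. Of the steroid transcription factors 7 of 7 (median log2 difference 0.41), of the cell cycle genes 16 of 18 (0.27) and of the cholesterol supply genes 9 of 10 (0.31) had a higher mean in wild-type vehicle ovaries. None of 11 oviduct and ciliated genes (-2.39) and none of 9 surface epithelium genes (-0.76) did. Nor did most smooth muscle genes (1 of 10 higher, -0.18), immediate early genes (3 of 15, -0.52) or adipocyte genes (2 of 9, -1.68). Over all 14474 tested genes with a symbol 8263 did, with a median of 0.04, and no member of any list was called.

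The genes of smallest p are given as values that missed the threshold. H19, a maternally expressed imprinted RNA, had 0.44, 0.26, 0.76 and 0.65 in wild-type vehicle ovaries, against 1.11 to 2.72 on the 12 other arrays, without overlap. Its log2 difference was -1.54 (SE 0.32, limma adjusted p = 0.854), and -1.63 and -1.46 within slides 1 and 2. Saal1 had 0.44, 2.29, 1.03 and 1.65, against -0.80 to 0.88, and a difference of 1.59 (SE 0.31, limma adjusted p = 0.854), with replicate 1 inside the range of the others. Other higher values were Kif26b (1.64), Kiss1 (1.30), which encodes kisspeptin, Slc25a43 (0.89) and Kcnt1 (0.79). Other lower values were Rbp7 (-1.75), Slc37a1 (-0.71) and Chd7 (-0.68). With normexp background correction the differences were 0.32 for Kif26b, 0.33 for Kiss1, 0.51 for Slc25a43, 0.73 for Kcnt1, -0.67 for Slc37a1 and -0.24 for Chd7. Ccl1, a chemokine, was not well above background on any of the 4 arrays and was on 9 of the 12 others (limma adjusted p = 0.854). Its measured means were -6.41 in wild-type vehicle ovaries and -5.0 in the others, 3 arrays not well above background included. The latter mean was 2.11-fold above -6.08, the mean of the lowest signals well above background on the 4 arrays. Because of those 3 arrays, 2.11 is not a firm lower limit of a difference. With normexp the log2 difference was -0.024. Without replicate 3 of the wild-type olaparib group Ccl1 passed (limma adjusted p = 0.032).

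Differences between slides were called for many genes. In the 12 other arrays 845 of 20227 (4.18%) differed between slides at an adjusted p under 0.05 (limma, with group means in the model), 559 higher on slide 2 (2.76%) and 286 lower (1.41%). The wild-type vehicle arrays were not part of that fit. In them 553 of the 559 were higher on slide 2, where 47.8% of all tested were, and 13 of the 286 were. Rps23, a ribosomal protein, had 4.79, 4.82, 7.42 and 6.76 in wild-type vehicle ovaries, with replicates 3 and 4 on slide 2. Animals on a slide may share more than the slide, and these cannot be told apart. None of the 25 genes of highest SD, and 15 of the 476 with an SD of 1 or more, were called for slide, where 4.18% of all tested were. For 23 of the 25 the SD pooled within the other groups was also 1 or more, which makes a slide difference hard to call. These counts therefore do not show whether slide had a part in their spread.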

How the data were processed

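RNA from 16 ovaries was hybridised by the authors to 1-colour Agilent arrays and read with Agilent Feature Extraction 10.7, per the submitters' processing notes (10.7.1.1, per the file headers). The processed signal is an intensity, background-subtracted and detrended, with low values replaced by a surrogate, per the file headers. The mean and background signals of an alternative are also intensity, per the file headers. In the value table, the deposited numbers are log2 and differ from the log2 of the processed signal by 1 constant per array (Pearson r 1.0), so its scale is known.

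From the intensity, log2 was taken and the 75th percentile of each array subtracted. Of 45598 probes 12 were left out for outlier marks, and no value was saturated. Spots of a probe were averaged. Probes were named through RefSeq by accession (21219), symbol (9333) or older symbol (321), 5269 kept the file's name, and 9444 had none. The brightest probe stood for a gene. Percentiles are over 35036 genes or unnamed probes. For tests a gene had to be well above background on 3 arrays of a group (20227 passed). Tests were two-sided with limma 3.58.1 in R 4.3.3, Benjamini-Hochberg adjusted, and were tried on simulated data. Other steps used Python 3.11.15 with pandas 2.3.3 and numpy 2.4.6. The number of arrays limits the precision.

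The text names the 30 brightest, 25 most and 5 least variable genes, the steroid genes, the first 4 members of each other list and the 2 of largest SD, and the genes of smallest p. Other list members named were chosen after their values were seen. The members and lists were chosen with earlier results of these data known. Alternatives changed the background correction (normexp, offset 50), the normalization, the filter, the probe rule and the blocks, and left out each array in turn. Some genes that the rule names are not reported here. Nothing says whether animals shared a litter.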

Additional observations from a re-analysis of the deposited data

Results flagged for a closer look

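Each gene named by rule was examined for an array far from the other 3 in its group of 4 by Dixon's ratio at its critical value. Of 219 genes 18 had one, and chance gives about 1 in 20 groups. The genes are not independent, and some (Rln1, Btnl5 and Coil) were named for their high SD, so that rate is no comparison for the 18. All values are log2 signals on the wild-type vehicle arrays.

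Ribosomal protein genes held 7 of the 18. On replicate 3 Rpl41 was 10.43 (9.62 to 9.63 on the other three), Rpl37a 9.89 (8.88 to 8.98), Rps18 9.81 (8.83 to 8.99), Rps28 9.57 (8.70 to 8.78), Rpl21 9.50 (8.58 to 8.65) and Rpl24 9.47 (8.48 to 8.57). After quantile normalization Rpl41 was 18.15 on replicate 3 and 18.15 to 18.28 on the other three. Rps3a was low on replicate 4, at 8.53 (8.84 to 8.88).

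Replicate 3 was also high for Inha at 8.84 (7.87 to 8.00) and Pecam1, an endothelial adhesion protein, at 3.85 (2.46 to 2.62), and low for Mrc1, a macrophage receptor, at -5.36 (-3.80 to -3.55). Replicate 2 was high for Gdf9 at 2.15 (1.18 to 1.30) and Rsph1, a cilia gene, at -0.32 (-1.93 to -1.78). It was low for Prlr at 1.96 (2.72 to 2.88) and Coil at -4.20 (0.01 to 0.42). Replicate 1 was low for Rln1 at -0.87 (4.16 to 5.0) and Fosl1, an immediate early gene, at -4.19 (-3.04 to -2.83), and high for Chst13 at -1.51 (-3.08 to -2.97). Replicate 4 was low for Btnl5 at -5.43 (-1.10 to -0.37).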

How the results depend on the processing

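Of the 25 most variable genes, 16 were among the 25 with normexp, 5 with no filter on dim probes and 14 to 19 when 1 of the 4 arrays was left out (14 without replicate 3, 16 without replicate 4). Of the 30 brightest, 19 remained with the median over probes and 27 to 29 with an array left out. Genes called for wild-type vehicle against the rest numbered 0, and 0 to 1 with an array left out, the 1 being Ccl1. Genes called for slide numbered 535 with normexp and 512 to 1432 with an array left out, against 845. That count was 1432 without replicate 1 and 516 without replicate 2 of the wild-type olaparib group, 538 without replicate 2 of the BRCA1+/- vehicle group, and 542 and 512 without replicates 2 and 3 of the BRCA1+/- olaparib group. The cause of these differences was not tested. With the replicate block 0 were called (lowest adjusted p 0.149 in limma, 1815 at an unadjusted p under 0.05). Deviations of same-numbered samples correlated at 0.155 to 0.331 for replicate 1, -0.071 to -0.032 for replicate 2, 0.049 to 0.258 for replicate 3 and -0.001 to 0.365 for replicate 4 (means with other numbers -0.079 to 0.026). Not every pair passed 0.1, so the samples were taken to share only a number, which also fixes slide and row. Probes well above background on all 4 arrays numbered 28903 by a laxer flag. Of the values for single genes and lists under these alternatives, 313 moved beyond the spread between arrays and 2078 did not. Dim probes near background limit what can be ranked.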
